A study of Mus musculus with 6 samples.

Results

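A large share of the probes on these arrays is named by a genomic interval and not by a gene, and 874 of the 16194 interval probes were detected throughout one group of mice and not throughout the other. These 874 probes lie in 723 intervals, counted by coordinates and by the letter F or R that follows them in the array's own naming. Detection means that the scanner software marked the spot as well above background. A probe was taken as detected in icKO only (334 probes in 276 intervals) where it was marked on all 3 icKO arrays and on at most 2 controls, and as detected in control only (540 probes in 474 intervals) in the reverse case. A further 3525 interval probes were marked on all 6 arrays, and 11795 were marked on all 3 arrays of neither group.

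RNA of the heart ventricles was taken from C57bl/6j males, 11 to 12 weeks old, and was hybridised to 6 one-colour Agilent arrays. The 3 icKO mice were Tead1F/F with the Myh6-CreER transgene, a Cre recombinase that tamoxifen activates and whose promoter is active in cardiomyocytes. The 3 control mice were Tead1 flox animals, and tamoxifen was given to both groups. No label gives the controls a Cre, so an effect of Cre and an effect of losing Tead1 cannot be told apart. The tissue was whole ventricle, and for every probe fewer cells of a type and less RNA per cell cannot be told apart either. Each array is labelled a biological replicate.

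Transcripts from between annotated genes include long noncoding RNAs, which as a class are often scarce, spliced like messenger RNAs and restricted to particular cell types. Some act in the nucleus, where they hold chromatin regulators at or away from genes, and others arise as by-products of active enhancers. In the heart, Mhrt, an antisense RNA from the myosin heavy chain locus, is a known example that binds a chromatin remodeller. TEAD1, the DNA-binding factor deleted here, acts at enhancers together with the coactivators YAP and TAZ. Whether the intervals of this array lie between genes was not checked, because no gene annotation of their build (mm9) was used here, and the meaning of the letters F and R was not found in the labels or headers. Opposite letters at the same coordinates are treated as separate intervals.

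Detection in one group was a little more frequent among interval probes than among the other probes. It applied to 5.40% of interval probes and to 4.75% of the spots of probes without an interval name. Detection in icKO only took 2.06% of interval probes against 2.49% of the other spots, and detection in control only took 3.33% against 2.26%. Over all 59305 spots that are not controls of the array, these shares were 2.38%, 2.55% and 4.93% in all.

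**Figure D1:**
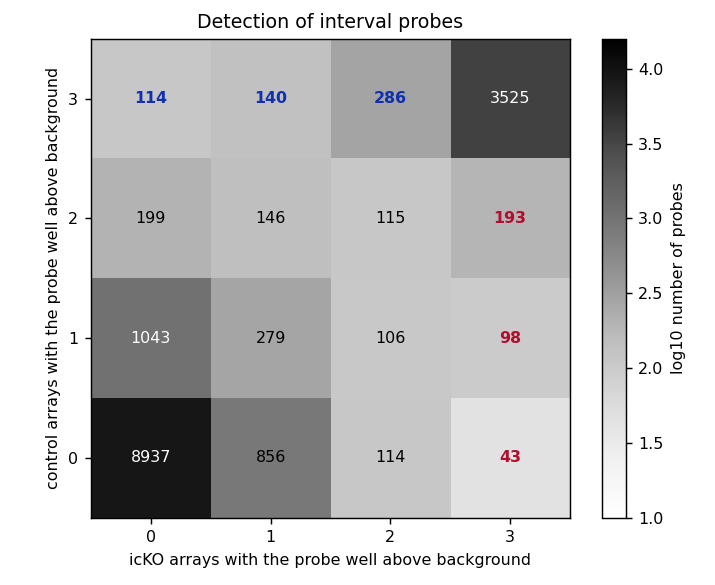
Number of interval probes by the number of icKO arrays (horizontal axis) and control arrays (vertical axis) on which each was marked well above background, with darker squares for larger numbers on a log10 scale. Red numbers are the probes detected in icKO only (43, 98 and 193) and blue numbers those detected in control only (114, 140 and 286); in both directions most had been marked on 2 arrays of the other group.

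In most members the other group was not fully dark. Of the 334 probes detected in icKO only, 43 were marked on no control array, 98 on 1 and 193 on 2. Of the 540 detected in control only, 114 were marked on no icKO array, 140 on 1 and 286 on 2. The plot of detection by array shows that the membership of most probes was decided by a single array of the dim group.

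Which direction was the more frequent depended on where the detection limit was set. The lowest processed signal marked well above background was 16.4, 21.1 and 15.0 on the controls and 24.96, 23.1 and 22.8 on the icKO arrays, and the additive error that the software assigned was 3.68, 4.76 and 3.30 against 5.68, 5.08 and 5.27. The 75th percentile of the signal was 189, 233 and 215 on controls and 312, 348 and 292 on icKO arrays, so all 3 icKO arrays were brighter as well as higher in their limit on the unscaled signal. As log2 less the 75th percentile, the limits overlapped, at -3.53, -3.46 and -3.85 on controls and -3.64, -3.91 and -3.68 on icKO arrays. With 1 common limit on the scaled signal, 241 probes were detected in icKO only and 690 in control only. A common limit on the unscaled signal gave 649 and 239, and one on the signal scaled to spike-in probes gave 541 and 299, so the excess of control-only probes turned into an excess of icKO-only probes. The balance also turned without icKO replicate 1 (443 and 422) and without icKO replicate 3 (474 and 411). Under the looser flag for signals that are positive and significant the numbers were 548 and 1077. The part of array brightness and detection limit in the individual memberships was not tested, but 211 of the 334 and 214 of the 540 kept their class under all 3 common limits as well.

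**Figure D2:**
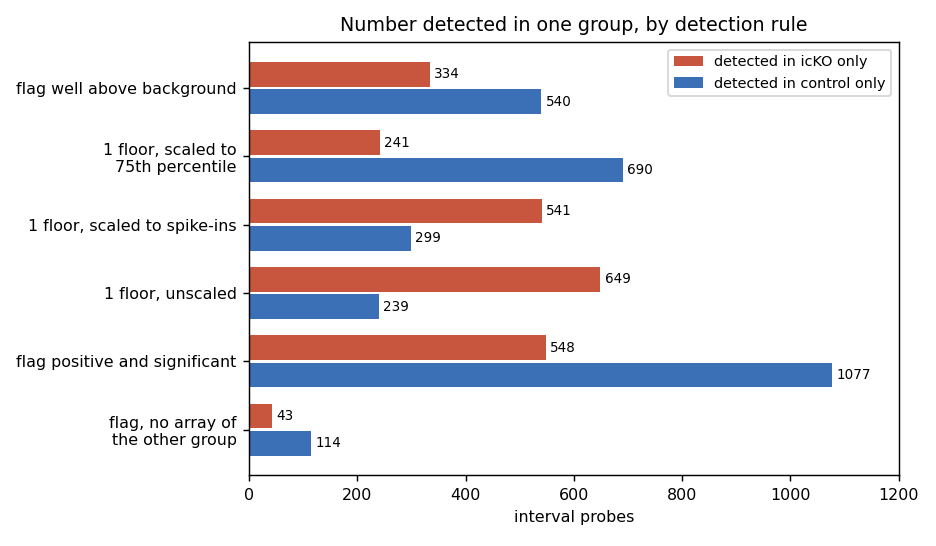
Number of interval probes (horizontal axis) detected in icKO only (red) and in control only (blue) under 6 rules of detection; each bar carries its number. Control-only probes are more numerous with the flags and with the limit scaled to the 75th percentile (540, 1077, 114 and 690), and icKO-only probes with the spike-in scaled and unscaled limits (541 and 649).

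Probes next to the limit show how fine the separation was. The icKO-only probe nearest to it, at chr7:129295545-129295911 (F, mm9 as for all coordinates here), had a processed signal of 23.25 on icKO replicate 3, where the lowest marked signal was 22.8. A probe at chr15:32708654-32725622 (F) had 29.0 on the same array and was not marked. On the control side, a probe at chr14:62263564-62308286 (F) was marked on control replicate 2 at 21.1, the lowest marked signal there, whereas one at chr11:95644899-95658549 (F) was not marked at 31.3. The signals just inside and just outside therefore overlapped.

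The difference between the groups was modest for most members. It is the mean of the 3 icKO arrays less the mean of the 3 controls, on the scale of log2 processed signal less the 75th percentile of each array, so 0 is the 75th percentile and -1 is a level 2-fold below it. Because the rule picked the members on the detection flags of the same contrast, these values describe the members and were not tested. Probes detected in icKO only had a median difference of 0.48, with quartiles at 0.15 and 0.91 and a range from -0.99 to 4.03. Probes detected in control only had a median of -0.84, with quartiles at -1.29 and -0.55 and a range from -4.10 to 0.31. The median icKO-only probe lay at -3.49, -3.42 and -3.27 on the 3 controls and at -2.84, -3.04 and -2.95 on the 3 icKO arrays. The median control-only probe lay at -2.77, -2.74 and -2.80 on controls and at -3.55, -3.57 and -3.68 on icKO arrays, so for both classes the medians of the 2 groups of arrays did not overlap. Interval probes detected in both groups, beside these, had a median of -0.26, and all 22282 features tested a median of -0.14.

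**Figure D3:**
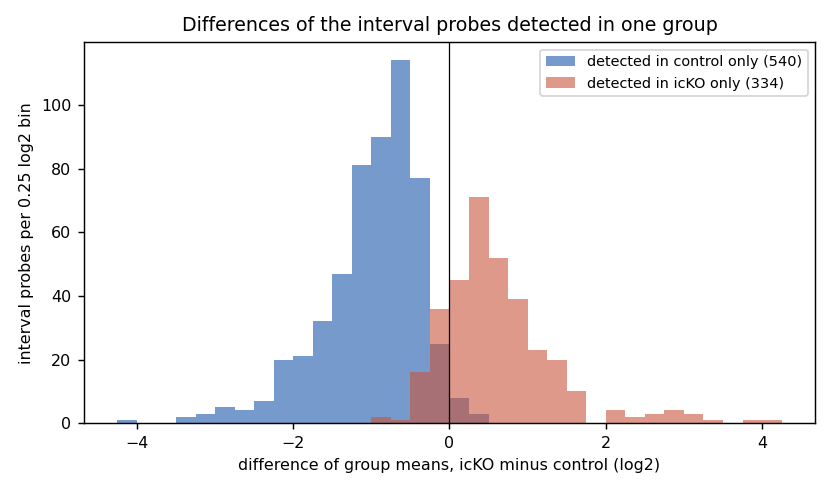
Histogram of the difference of group means (horizontal axis, log2, icKO minus control) for the 334 interval probes detected in icKO only (red) and the 540 detected in control only (blue), in bins of 0.25. Medians lie at 0.48 and -0.84, and 55 icKO-only and 11 control-only probes lie on the other side of 0.

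The mean did not always lie on the side that the flags gave. It was lower in icKO for 55 of the 334 probes detected in icKO only, and higher in icKO for 11 of the 540 detected in control only. With spike-in scaling, which added 0.44 to every difference, those numbers were 6 and 91. With normexp background correction 247 of the 334 icKO-only probes lay lower in icKO, and their median difference turned to -0.11. The most contrary probe with separated groups was at chr6:12062275-12075800 (R): it stood at -3.08, -3.24 and -2.73 on the controls and at -3.32, -3.55 and -3.46 on the icKO arrays, and was still marked on every icKO array and on 2 controls.

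Separation of all 3 arrays of one group from all 3 of the other was found in 126 icKO-only and 346 control-only probes. Of the 126, 125 were higher in icKO, and all 346 were lower. Over the 4399 interval probes tested, 12.0% were separated with icKO higher and 40.2% with icKO lower, and over those detected in both groups 11.4% and 40.3%. The fit across all features called 100 of the 334 higher and 292 of the 540 lower (limma, Benjamini-Hochberg adjusted p under 0.05). The same fit called 9.00% of tested interval probes higher and 31.2% lower, which makes 40.2% together, and 16.0% and 28.7% of all features, which makes 44.8%. The excess of lower calls depended on scaling. With spike-in scaling 869 interval probes were called higher and 345 lower, and over all features 7175 and 1680, while median scaling gave 4400 and 3659 over all features. Since the rule used this contrast, nothing is read from the members' counts.

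Differences were larger where the dim group was darker, an order that the flags largely set in advance, since fewer marked dim arrays go with lower dim signals. For icKO-only probes the median difference was 1.45 with no control array marked, 0.66 with 1 and 0.29 with 2, and for control-only probes it was -1.50, -0.83 and -0.67. The 211 and 214 probes that kept their class under all 3 common limits had medians of 0.65 and -1.09, and 99 and 162 of them separated the groups. Large differences were few in both directions. More than 1 log2 unit separated the means of 72 icKO-only and 223 control-only probes, more than 2 units 19 and 42, and more than 3 units 6 and 6. Where no array of the dim group was marked, the dim level is known only as a limit, and the difference is also given as "at least N-fold". This bound sets the bright group's mean against, on each dim array, the higher of the probe's own signal and the lowest marked signal. All bounds given here hold on the main scaling only. Spike-in scaling adds 0.44 log2 units to every difference, which raises icKO-only bounds and lowers control-only bounds. With normexp the largest icKO-only difference, 4.03, became 1.11 log2 units, so the bounds need not hold there. The bound passed 2-fold for 13 of 43 icKO-only and 43 of 114 control-only probes, with highest values of 6.41 and 5.90. The median bound was 1.53-fold and 1.84-fold.

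Among intervals detected in icKO only, the largest difference of measured means, and the highest bound, belonged to chr5:107504871-107507830 (F), an interval of 2960 bases. Its leading probe stood at -4.53, -4.86 and -5.51 on the controls and at -0.74, -1.33 and -0.73 on the icKO arrays, that is -4.97 ± 0.50 against -0.93 ± 0.34 (SD, n = 3 each), a difference of 4.03 and a bound of at least 6.41-fold. The interval carries 3 probes, and all 3 were detected in icKO only with groups that did not overlap. The other two differed by 3.20 and 1.54, and the last of these had been marked on 2 of 3 controls, at -2.35, -3.01 and -3.85. All 3 probes of the interval thus gave icKO arrays above control arrays, although by different amounts.

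An interval of 75276 bases on chromosome 12, chr12:5303823-5379098 (R), gave the next largest difference of measured means. The probe lay at -5.63, -5.60 and -5.96 on the controls and at -1.70, -2.01 and -1.94 on icKO arrays, a difference of 3.85 and at least 3.31-fold. All 3 control values are unmarked signals, so only the bound is known of the control level. A companion probe detected in both groups stood at -2.90, -1.96 and -2.52 on controls and at -0.43, -0.57 and -0.30 on icKO arrays. Its difference of 2.03 was in the same direction and was called higher by the fit. Another icKO-only probe of that interval was less clear, because control replicate 2 stood at 1.93 while the remaining controls were at -5.67 and -3.92, and the groups overlapped. The last 2 of its 5 probes were detected in neither group throughout and differed by -0.25 and 0.66.

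At chr18:61781410-61788685 (R), of 7276 bases, 4 probes were detected in icKO only and the fifth in both groups, and all 5 had icKO arrays above control arrays. The named probe stood at -5.77, -5.65 and -5.15 on controls and at -1.99, -2.58 and -2.49 on icKO arrays, a difference of 3.17 and at least 2.39-fold. The other three icKO-only probes differed by 2.62, 2.79 and 3.16, and the probe detected in both groups by 0.73. A short interval within the same stretch, chr18:61788148-61788307 (R), held 1 more icKO-only probe, with a difference of 2.04. Under the opposite letter of the same coordinates, 1 of 5 probes was detected in control only. It was marked on all controls, at -2.98 and -3.40 with the value of control replicate 2 dropped as an outlier spot, and lay at -4.10, -4.13 and -5.52 on icKO arrays, where it was marked on none; the fit did not call it, and it lost its class with the unscaled and spike-in limits. The F probe detected in both groups differed by -0.30 and was not called.

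One icKO array set the size of the difference at chr1:141824450-141835125 (F). The controls were at -5.67, -5.67 and -6.07, and the icKO arrays at -0.37, -3.41 and -3.45. Without icKO replicate 1, the difference of 3.39 became 2.37, and the bound of at least 2.30-fold became 1.13-fold. Among its 5 probes, a companion at -5.77, -5.62 and -4.55 on controls against -2.72, -3.23 and -3.08 on icKO arrays showed a difference of 2.30 without such a lone array. The 5 probes did not all go one way, since another differed by -2.09, with icKO below control on every array, and was detected in neither group throughout.

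Both intervals with the widest span among the leading icKO-only probes gave the same picture in more than 1 probe. At chr14:103746051-103840199 (F), of 94149 bases, the leading probe was at -5.73, -5.72 and -6.05 on controls and at -2.68, -3.24 and -3.09 on icKO arrays (difference 2.83, at least 1.53-fold). Its companions differed by 2.65 and 2.51, so all 3 probes had icKO arrays above control arrays. At chr4:124127144-124334840 (R), of 207697 bases, the leading probe was at -4.72, -4.60 and -5.18 on controls and at -3.13, -1.91 and -2.11 on icKO arrays (difference 2.45, at least 2.34-fold). A further icKO-only probe there differed by 1.64.

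The plot of values by array also shows 4 more intervals, which complete the leading 10 in this direction. On chromosome 8, chr8:122728333-122752130 (R) stood at -4.86, -5.51 and -4.64 on controls and at -2.56, -2.60 and -1.38 on icKO arrays, at least 2.70-fold brighter. The other, chr8:129336539-129400338 (R), was at -5.68, -5.48 and -6.01 against -3.47, -2.56 and -2.73, at least 1.62-fold brighter. The remaining pair were short intervals of 617 and 548 bases. The probe at chr9:4260788-4261404 (F) stood at -5.25, -5.65 and -5.33 on controls and at -2.55, -3.67 and -2.30 on icKO arrays, at least 1.71-fold brighter. At chr4:53315503-53316050 (F), control replicate 3 at -3.82 was well above the other controls at -5.69 and -5.65, and the icKO arrays were at -3.17, -3.11 and -2.45, at least 1.62-fold brighter.

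**Figure D4:**
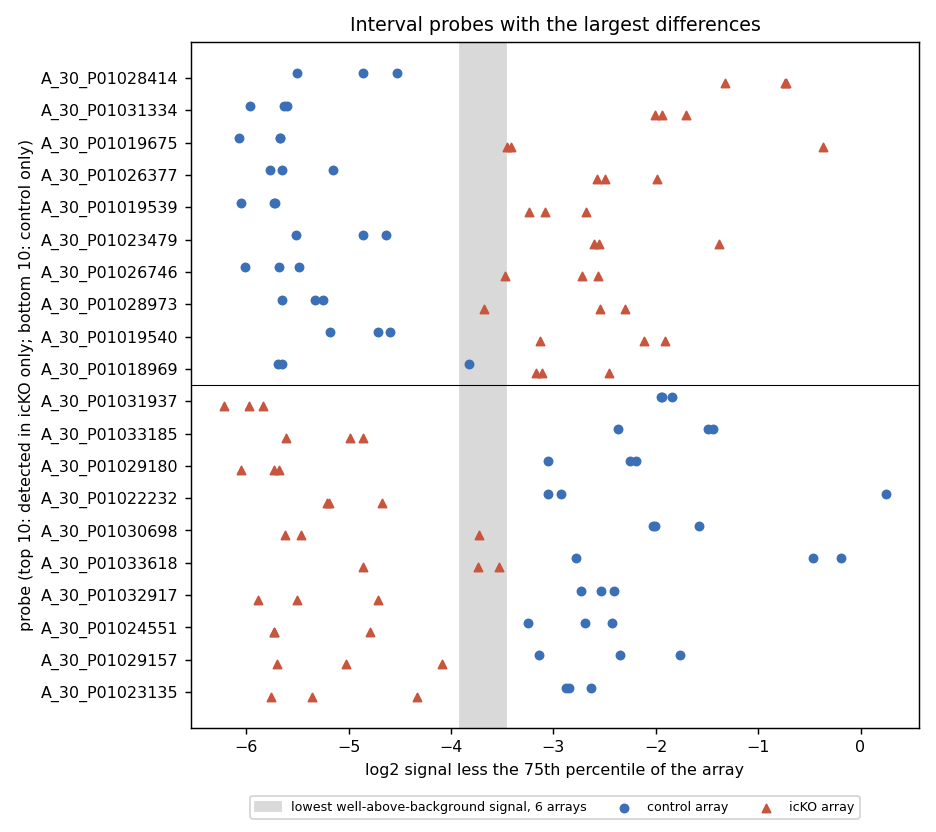
Level of each probe on the 6 arrays (horizontal axis, log2 processed signal less the 75th percentile of the array; blue circles are controls, red triangles icKO arrays) for the 10 icKO-only probes (top) and 10 control-only probes (bottom) with the largest differences among those not marked on any array of the dim group and with separated groups. The grey band spans the lowest marked signal of the 6 arrays, and the lone icKO array of A_30_P01019675 at -0.37 and the lone control array of A_30_P01022232 at 0.25 stand apart from their groups.

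The longest series of icKO-only probes in a single interval was in chr1:183783306-183834531 (F), where 6 probes were members. Their differences were between 0.94 and 1.57, and in 5 of the 6 the groups did not overlap. All 10 probes of this interval, including 2 detected in both groups and 2 in neither throughout, had a higher mean in icKO. One of them was marked on no control array, at -4.11, -4.41 and -4.74, against -3.00, -3.08 and -2.93 on icKO arrays, at least 1.53-fold brighter. A series of 4 lay in a pair of overlapping intervals, chr5:22887983-22939658 and chr5:22890322-22939119 (both R), with differences from 0.89 to 1.32 and separated groups in each. The shorter of these intervals has 3 probes on the array, and all of them were icKO-only members. Inside both lies chr5:22926562-22927468 (R), with a control-only probe that differed by -0.48. Because overlapping intervals and probes of 1 interval can report the same transcript, such series are not independent observations.

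Among intervals detected in control only, the largest difference of measured means was at chr7:119809687-119811410 (R), of 1724 bases. The controls stood at -1.95, -1.94 and -1.84 and the icKO arrays at -5.84, -6.22 and -5.98, that is -1.91 ± 0.06 against -6.01 ± 0.19 (SD, n = 3 each), a difference of -4.10 and at least 3.57-fold dimmer in icKO. None of the icKO arrays was marked, so the dim level is a limit, and by the bound it did not lead its class, the highest being chr11:99970341-99973420 (at least 5.90-fold) and chr4:88604248-88645948 (at least 3.94-fold). That interval lies within a longer one of the same letter, chr7:119735208-119822808, with 2 control-only probes that behaved differently. One of them stood at -1.67, -1.25 and -1.47 on controls and at -1.94, -4.88 and -4.13 on icKO arrays, so icKO replicate 1 was close to the controls while the others were far below. The same array was the highest icKO array in the other probe too, at -1.73 against -3.94 and -3.26.

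A stretch of 2415 bases on chromosome 9 was dimmer in icKO in each of its probes. It comprises chr9:40266027-40266460 and chr9:40268246-40268441 (both R). The leading probe was at -3.05, -2.20 and -2.25 on controls and at -5.73, -6.05 and -5.68 on icKO arrays (difference -3.32, at least 2.37-fold dimmer). The other member of its interval differed by -2.65, and the 2 members of the neighbouring interval by -3.25 and -2.88. The fifth probe of the stretch was detected in both groups, and at -0.76, -0.60 and -0.62 on controls against -1.95, -2.39 and -2.14 on icKO arrays it was lower too and was called so by the fit. Every one of these 5 probes had all icKO arrays below all controls.

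At chr10:69669025-69686275 (F), of 17251 bases, 2 of 5 probes were control-only members and 3 were detected in both groups. The members stood at -0.68, -1.08 and -0.61 on controls against -3.48, -3.34 and -4.50 on icKO arrays, and at -0.72, -1.11 and -0.67 against -2.93, -3.04 and -3.56. The 3 companions differed by -2.03, -2.68 and -2.74, and each was called lower. All 5 probes separated the groups. Within it lies chr10:69679644-69682458 (F), with 1 more control-only probe at -0.63, -0.40 and -0.26 against -2.74, -2.94 and -4.46, a difference of -2.95.

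In further intervals several neighbouring probes were dimmer together. At chr13:113555055-113564665 (F) each of 3 probes was a control-only member, with differences of -2.26, -2.25 and -1.94 and no overlap between groups. The neighbouring intervals chr2:143991240-143991597 and chr2:143992000-143992611 (both F) held 5 control-only probes with differences of -1.14, -1.35, -1.79, -1.90 and -2.08, of which 4 separated the groups. In the fifth, icKO replicate 1 at -2.04 was as bright as the controls at -2.26, -2.15 and -2.40, while the other icKO arrays were at -4.47 and -3.72. A run of 5 probes in 3 overlapping intervals at chr14:78214602-78226287 (R) differed less, with a median of -1.08, and 4 of the 5 separated the groups.

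Several of the leading control-only probes owed their size to 1 or 2 arrays. At chr13:29106280-29120376 (F), control replicate 2 stood at 0.25 and the other controls at -3.05 and -2.93, against -5.19, -5.21 and -4.67 on icKO arrays. Without control replicate 2 the difference of -3.11 became -2.03 and the bound of at least 3.56-fold became 1.69-fold. At chr11:99970341-99973420 (R) control replicate 3 was low, at -2.78 beside -0.19 and -0.46, against -3.53, -4.86 and -3.73 on icKO arrays. There the bound of at least 5.90-fold became 10.4-fold without control replicate 3.

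In the other leading control-only intervals no control array stood so far from the rest. The probe at chr4:88604248-88645948 (R) was at -1.44, -2.37 and -1.49 on controls and at -5.62, -4.86 and -4.98 on icKO arrays (difference -3.39, at least 3.94-fold dimmer). At chr11:16831925-16851121 (R) the controls were at -2.03, -1.58 and -2.01, and icKO replicate 2 at -3.72 was above the other icKO arrays at -5.47 and -5.62 (difference -3.06, at least 3.50-fold dimmer). At chr12:15735906-15798506 (R) they were at -2.41, -2.73 and -2.54 against -4.72, -5.89 and -5.50 on icKO arrays (difference -2.81, at least 2.27-fold dimmer). In each of these 3 intervals the lowest control was more than 1 unit above the highest icKO array.

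The remaining leading probes had bounds of at most 2.51-fold. At chr6:52046805-52072744 (F) the leading probe was at -3.25, -2.69 and -2.43 on controls and at -5.73, -4.79 and -5.72 on icKO arrays (difference -2.63, at least 1.94-fold dimmer). Its 6 probes were not alike, since another member differed by -2.51 while the brightest, detected in both groups at 0.97, 0.55 and 0.48 against 0.47, 0.24 and 0.38, differed by only -0.31. At chr16:23992037-24001037 (F) the controls were at -3.14, -1.76 and -2.35 and the icKO arrays at -5.70, -4.08 and -5.03 (difference -2.52, at least 2.51-fold dimmer). The overlapping interval chr16:23989160-23992539 of that letter held 2 more members with differences of -2.39 and -2.27. At chr3:10081893-10094218 (R) the probe was at -2.88, -2.85 and -2.63 against -4.34, -5.36 and -5.76 (difference -2.37, at least 1.95-fold dimmer).

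All 20 leading differences kept their direction with median, quantile and spike-in scaling, with the authors' value table and with normexp. These probes were picked for large differences in the same values. Median and spike-in scaling add only 0.16 and 0.44 to every difference and could not turn them, so the kept direction is no sign of stability. With normexp at an offset of 50 they lay between 0.08 and 1.11 for the icKO-only probes and between -0.68 and -1.47 for the control-only probes. By detection, 2 of the 10 icKO-only and 4 of the 10 control-only leading probes lost their class under at least 1 of the 3 common limits. These were chr8:129336539-129400338 and chr9:4260788-4261404 on the icKO side, and chr9:40266027-40266460, chr13:29106280-29120376, chr6:52046805-52072744 and chr16:23992037-24001037 on the control side. A single array more than 2 log2 units above the rest of its detected group was found in 2 icKO-only and 8 control-only probes in all.

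Most members stood alone in their interval. A single member probe was found in 232 of 276 icKO-only intervals and in 414 of 474 control-only intervals, 2 in 34 and 54, and 3 or more in 10 and 6. Only 17 and 15 of these intervals had a single probe on the array, so most single members had companions that were not members. All probes of the interval were members, with at least 2 on the array, in 3 icKO-only and 8 control-only intervals. Members of both classes under 1 letter were found in 27 intervals, which are included in both counts.

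Companion probes of the same interval and letter were not picked by the rule, although they were hybridised to the same 6 arrays and so add no independent samples. Of the companions of icKO-only members, 314 were detected in both groups, and the fit called 75 of them higher (23.9%) and 51 lower (16.2%), against 121 and 6 with spike-in scaling and 41 and 94 with normexp, where the balance turns. Of all 3525 interval probes detected in both groups, 8.40% were called higher and 30.7% lower, 39.1% in all. With spike-in scaling these shares were 19.01% and 5.986%, beside 38.54% and 1.911% of the companions of icKO-only members. With normexp they were 6.95% and 44.28%, beside 13.06% and 29.94%, so all these probes shifted the same way as the companions. Of the companions of control-only members, 449 were detected in both groups, of which 207 were called lower (46.1%) and 13 higher (2.90%). With spike-in scaling 65 of the 449 were called lower (14.48%) and 29 higher (6.459%). Their median differences were 0.05 and -0.44, beside -0.26 over all interval probes detected in both groups. These shares are a description, and no test of their difference from the background was made.

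Counted by interval, the shares were similar. At least 1 companion was called higher in 46 of the 156 icKO-only intervals that had a companion detected in both groups (29.5%), and at least 1 was called lower in 129 of 225 such control-only intervals (57.3%). Over all 1903 intervals with a probe detected in both groups, 8.67% had a probe called higher and 40.7% had one called lower. In 38 of the 156 icKO-only intervals at least 1 companion was called lower, a count that rests on the main scaling. Companions detected in neither group throughout had a positive difference in 36.6% of 573 probes beside icKO-only members and in 21.8% of 1108 beside control-only members, against 22.3% of all such interval probes.

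**Figure D5:**
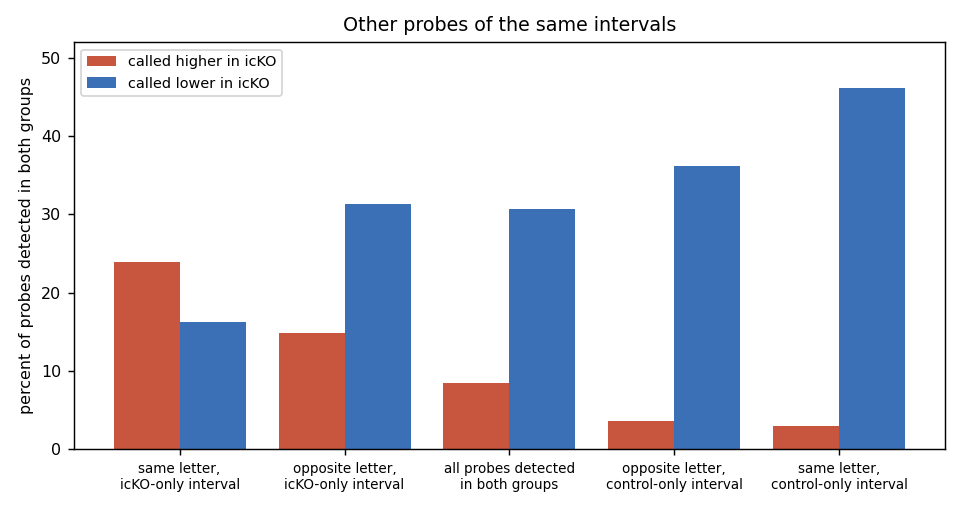
Percent of probes detected in both groups that the fit called higher (red) or lower (blue) in icKO, for companions of icKO-only members and of control-only members under the same and the opposite letter, with all 3525 interval probes detected in both groups in the middle. Companions under the same letter as icKO-only members have 23.9% called higher, those of control-only members 46.1% called lower, and the background is 8.40% and 30.7%.

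Under the opposite letter the companions lay nearer to the background. Of 195 probes detected in both groups opposite icKO-only members, 14.9% were called higher and 31.3% lower. Of 334 opposite control-only members, 3.59% were called higher and 36.2% lower. Both letters were probed for 1067 intervals. Among these, 6 had icKO-only probes and 17 had control-only probes under both letters, and 24 had icKO-only probes under one letter and control-only probes under the other.

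Of those 24 intervals, the one with separated groups under both letters besides chr18:61781410-61788685 was chr8:122712014-122732520. Under R a probe stood at -3.87, -3.73 and -3.68 on controls and at -2.63, -2.63 and -2.19 on icKO arrays, a difference of 1.28. The other icKO-only probe under R, at -5.59, -3.35 and -4.41 against -2.86, -3.39 and -2.70, had overlapping groups and was not called. Under F a probe stood at -2.61, -2.62 and -2.22 on controls and at -3.51, -3.78 and -3.31 on icKO arrays, a difference of -1.05. The R interval overlaps chr8:122728333-122752130, which is among the leading icKO-only intervals. At the others the members' groups overlapped under at least 1 letter.

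Length of the interval differed little between the classes. With each interval counted once, the median was 11115.5 bases for intervals with icKO-only probes and 10807.5 for those with control-only probes. It was 12276 for intervals with probes detected in both groups and 10809 for those with probes detected in neither throughout. By length, icKO-only probes were between 1.95% and 2.39% of all interval probes in each of 4 length classes, and control-only probes between 2.90% and 3.82%. Of the icKO-only probes 174 carried the letter F and 160 R, and of the control-only probes 254 and 286.

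By chromosome, icKO-only probes made up 1.21% of interval probes on the X chromosome and 4.38% on chromosome 18, the lowest and highest shares. Control-only probes made up 1.56% on the X and 5.76% on chromosome 2, again the lowest and highest. Chromosome 18 has 25 icKO-only probes among 571, of which 5 come from the stretch at chr18:61781410-61788685, and chromosome 2 has 60 control-only probes among 1042. Since probes of 1 interval share their target, these shares were not tested.

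Named long noncoding RNAs were measured on the same arrays, and 19 of a list of 40 passed the filter on dim probes. The fit called 5 higher and 3 lower, with a median difference of 0.09, and with spike-in scaling 10 and 1. Over all 22282 features 16.0% were called higher and 28.7% lower, or 7175 and 1680 features with spike-in scaling, so all features shifted that way. Snhg3, a host gene of small nucleolar RNAs, was higher by 0.73 ± 0.13 (SE; limma, Benjamini-Hochberg adjusted p = 0.00541), with controls at 2.20, 2.18 and 2.24 and icKO arrays at 3.18, 2.79 and 2.85. Mhrt was lower, with a difference of -1.24 ± 0.24 (adjusted p = 0.00799, limma), with controls at 5.91, 6.28 and 6.69 and icKO arrays at 4.70, 5.18 and 5.27. Neither gene's groups overlapped. Mhrt lies opposite a myosin heavy chain gene, and whether its probe also picks up that transcript was not tested.

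Some lists of cell type markers differed between the groups in the tissue as a whole, and most fibroblast and macrophage markers were called higher under every scaling. The summed levels of the smooth muscle, erythrocyte and neural lists overlapped between the groups. Of 10 cardiomyocyte markers 8 were called lower, or 2 with spike-in scaling, and their summed level, on a linear scale with each array's 75th percentile as 1, was 8359 to 9929 in controls and 5292 to 5869 in icKO. Of 8 fibroblast markers 7 were called higher (summed level 243 to 395 and 604 to 774), and of 7 macrophage markers 6 (30.4 to 42.9 and 86.8 to 111). Among endothelial markers 1 of 6 was called higher and 3 lower (40.5 to 47.8 and 66.8 to 116), and the lower calls were lost with spike-in scaling. The rise of this sum rested on Vwf alone, which differed by 2.14, while every other endothelial marker had a negative difference on the main scaling. Of 6 smooth muscle and pericyte markers 1 was called higher and 1 lower (45.1 to 71.8 and 54.2 to 61.5). Lymphocyte markers had 1 of 2 called lower (1.52 to 1.84 and 1.11 to 1.28), erythrocyte markers 1 of 2 higher (351 to 629 and 622 to 1322), skeletal muscle markers 1 of 3 higher and 2 lower (119 to 138 and 23.0 to 27.7), and neural markers 1 of 3 higher (27.8 to 32.0 and 25.5 to 29.0). The skeletal muscle sum was almost all Ckm, at 7.08, 7.05 and 6.87 on controls and 4.75, 4.46 and 4.69 on icKO arrays (log2). Tnni2 also fell, by 1.96, and Tnnt3 rose by 1.36. Whether Ckm stands for skeletal muscle in ventricle was not tested. The single lower calls of the smooth muscle and lymphocyte lists were lost with median and spike-in scaling. The part of these marker changes in the detection of the intervals was not tested. Tead1 itself was lower in icKO on its main probe, at 4.01, 3.79 and 3.96 on controls and 3.66, 3.44 and 3.46 on icKO arrays, a difference of -0.40 ± 0.11 (SE; adjusted p = 0.030, limma), whose sign turns with spike-in scaling. The position of that probe in the floxed gene was not given, so it does not check the genotype.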

How the data were processed

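Cy3-labelled RNA from the ventricles of 6 mice was measured on 1 Agilent array each, per the labels' protocols. In the scanner files, spot intensity is given after background subtraction within the array (Feature Extraction 11.0.1.1, design 028005, build mm9), per the file headers; per the submitters' processing notes the version was 9.1. Other columns used are the software's flags for detection, outliers and saturation, as deposited. An intensity table of the authors, deposited on a linear scale and with its normalisation not stated in the labels or headers, served as an alternative after log2.

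The scale is log2 signal less the 75th percentile of the non-control probes on the same array. Outlier spots were left out of values but kept their detection flag. Interval probes are those whose systematic name starts with chr. The fit took 22282 features (a gene by its brightest probe, or a single unnamed probe), each marked on every array of at least 1 group, and used limma 3.58.1 in R 4.3.3 with group as the only term and Benjamini-Hochberg adjustment at 0.05. Having 3 arrays a group limits the precision. On simulated data with 22282 features, changes of 1.5-fold, 2-fold and 4-fold were put into 73, 65 and 62 of them. The fit recovered 17.8%, 38.5% and 90.3% of these, with 3 false calls. In the real data 9975 features were called, many more than were changed in the simulation. The adjusted p depends on that number, so the simulated shares and false calls need not hold for the real data.

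Members, gene lists and rules were chosen with earlier results of these data known. Intervals described in full were the 10 in each direction with the largest difference among members not marked on any dim array and with separated groups, 1 per run of intervals within 50 kb, and up to 5 with several member probes in each class. Long noncoding RNAs named were to be those with the smallest p in each direction. Runs of probes, opposite-letter pairs and chr6:12062275-12075800 were chosen after their values were seen. Replicate numbers did not pair the samples: same-numbered deviations correlated at -0.05, -0.13 and -0.002. All arrays were on 1 slide in 1 scan; the slide columns were 1, 1 and 2 for controls but 2, 3 and 3 for icKO. Saturated spots numbered 0. Genes nearest to the intervals were not analysed here.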

Additional observations from a re-analysis of the deposited data

How the results depend on the processing

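Of 128 alternatives tried for the results that answer a comparison, 101 left the value close to its size. For single leading probes it was 77 of 100. A difference was taken as close where it moved by less than the larger SD of the 2 groups. Median scaling, which adds 0.16 to every difference, stayed below that SD for every leading probe, so it could not count otherwise. With normexp most leading probes moved by more. At chr13:29106280-29120376, -3.11 with an SD of 1.87 became -1.27 with normexp and still counted as close. A count was taken as close where it changed by at most 1.5 times, and its direction was not checked. The 101 include spike-in scaling over all features, where 3574 higher and 6401 lower calls became 7175 and 1680. Detection rules moved the counts most. Probes detected in icKO only (334) were 548 with the flag for positive and significant signals, 43 where no array of the other group was marked, 649 with a common limit on the unscaled signal and 541 on the spike-in scaled signal. Probes detected in control only (540) were 1077, 114, 239 and 299. Both common limits on unscaled and spike-in scaled signals were chosen after seeing the data. Leaving out 1 array gave 233 to 474 and 411 to 786, with icKO-only probes the more numerous without icKO replicate 1 (443 and 422) or 3 (474 and 411).

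The median difference of icKO-only probes (0.48) was 0.63 with median scaling, 0.63 with quantile normalization, 0.92 with spike-in scaling, 0.63 with the authors' value table, 1.45 where no other array was marked, and reversed to -0.11 with normexp; the cause was not tested. The median of control-only probes (-0.84) was -0.69, -0.70, -0.40, -0.71 and -1.50, and -0.52 with normexp. Leaving out 1 array gave 0.42 to 0.56 and -0.91 to -0.83.

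Called features (9975) fell to 6123 and called interval probes (1769) to 1134 with no filter on dim probes. Without 1 array they were 7550 to 9030 and 1297 to 1627. Higher calls were 35.8% of all calls, 54.6% with median and 81.0% with spike-in scaling, and among interval probes 22.4%, 39.2%, 71.6% and, with normexp, 11.0%. Companions of icKO-only probes called higher (75) were 121 with spike-in scaling, 41 with normexp and 34 without the filter, and those of control-only probes called lower (207) were 65 with spike-in scaling and 124 without the filter. Without 1 array they were 54 to 68 and 158 to 203. In each of 19 alternative fits both shares lay above their background: 10.8% to 38.5% against 4.03% to 19.01%, and 14.5% to 63.0% against 5.99% to 44.3%. All these fits reuse arrays of the same 6 mice, so they are not independent of each other. The background includes the companions, and companions can report the same transcript as the members.

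With replicate number as a block there were 7881 calls over all features, 1455 among interval probes, and 61 and 181 among companions; the replicate block moved no count by over 1.5 times. Slide row as a block, chosen after seeing the data, gave 8947 and 1550. A slide block was not run because there was 1 slide, and results on nearest genes were not run because the columns used here hold no gene coordinates. Normexp used the median in place of the mean spot signal. For members not marked on any dim array, the dim level is known only as a limit.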
